A study of Mus musculus with 20 samples.

Results

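The mRNAs described here encode the subunits of AMPA and kainate receptors, the fast glutamate receptors of the brain, and comprise Gria1, Gria2, Gria3 and Gria4 (AMPA) and Grik1, Grik2, Grik3, Grik4 and Grik5 (kainate). They were chosen by gene symbol, with earlier results of these data known. All 9 were listed in each of the 4 deposited tables, among 14700 genes in any table and 13688 in all 4. The samples were RNA sequencing libraries of primary mouse cortical neurons isolated at embryonic day 15 and grown for 7 days. Cultures were wild type (WT) or knockout (KO) for ciRS-7, a circular RNA that binds the microRNA miR-7 and is listed as Cdr1as, and the labels give the strain C57BL/6N-Cdr1asem1Nikr for every culture of both genotypes. They were kept for 12 h either in normoxia (N), in medium with 25 mM glucose and pyruvate, or under oxygen and glucose deprivation (OGD), in medium without either supplement at 1% oxygen, a culture model of ischemia. Each of N_WT, OGD_WT, N_KO and OGD_KO had 5 libraries, and N and OGD libraries of the same number carried the same culture label. The number of embryos behind a culture is not given in the labels used here.

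AMPA and kainate receptors are cation channels assembled from several subunits around a central pore and opened by glutamate. In AMPA receptors GluA2, the product of Gria2, decides whether calcium passes: adenosine deamination of its mRNA recodes a glutamine of the pore to arginine (the Q/R site), and channels with edited GluA2 pass little calcium. In kainate receptors GluK1, GluK2 and GluK3 (Grik1, Grik2 and Grik3) form channels on their own, whereas GluK4 and GluK5 (Grik4 and Grik5) bind glutamate with high affinity and need a partner of the first group. Both families, with the auxiliary proteins that carry them to synapses, have long been studied in ischemic neuron death, in which glutamate accumulates outside cells.

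The pore sequence that these genes share is shown first, because the Q/R codon is where editing sets calcium entry. Each line gives 27 bases of the coding strand from GENCODE M21 transcripts on mm10, with the first glutamine codon of the Met-Gln-Gln-Gly motif in capitals and its position in the gene's coding exon.
Gria1 (chr11:57243094-57243096, plus strand): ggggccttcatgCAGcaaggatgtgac
Gria2 (chr3:80706911-80706913, minus strand): ggtgcctttatgCAGcaaggatgcgat
Gria3 (chrX:41610265-41610267, plus strand): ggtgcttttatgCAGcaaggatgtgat
Gria4 (chr9:4464137-4464139, minus strand): ggtgcctttatgCAAcaaggatgtgac
Grik1 (chr16:87940542-87940544, minus strand): ggagctctcatgCAGcaaggatcggag
Grik2 (chr10:49244329-49244331, minus strand): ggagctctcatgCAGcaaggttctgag
Grik3 (chr4:125691207-125691209, plus strand): ggctccctgatgCAGcaaggatctgaa
Grik4 (chr9:42547623-42547625, minus strand): ggaggcttcatgCAGcaaggctccact
Grik5 (chr7:25022497-25022499, minus strand): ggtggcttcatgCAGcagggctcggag
The codon read CAG in 8 of the 9 genes and CAA in Gria4. This codon is known to be edited in Gria2, Grik1 and Grik2. Gene-level values hold no base calls, so editing was not measured here.

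The microRNA that ciRS-7 binds is shown next, with its seed (bases 2 to 8) in capitals, beside the only 7-base target words found in the longest annotated 3′ UTRs of the 9 genes. A target word pairs either with the whole seed or with its first 6 bases followed by an A. The mature sequences are from RefSeq and the sites, with 7 matching bases in capitals, from GENCODE M21.
mmu-miR-7a-5p: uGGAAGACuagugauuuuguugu
mmu-miR-7b-5p: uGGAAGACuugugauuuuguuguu
Gria2 (3′ UTR, chr3:80686640-80686646, minus strand): tgggcctacTCTTCCAaaaattgag
Grik2 (3′ UTR, chr10:49096124-49096130, minus strand): tacttcattGTCTTCCtttcttcat
Gria2 held 1 word, of the kind with an A, in a UTR of 7268 bases, and Grik2 held 1 that pairs with the whole seed, in a UTR of 6275 bases. A 7-base word searched was GTCTTCC. The other was TCTTCCA. The 8-base word that joins them, GTCTTCCA, was found in none of the 9 genes. Of 21037 genes with a 3′ UTR, 23.2% held a 7-base match and 3.54% an 8-base match. A match is a description of the letters and not a measured site.

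Recovered read totals were between 7071506 and 16658618 per library. Reads of Cdr1as checked the genotype labels: N_WT libraries had 700 to 1365 and OGD_WT libraries 545 to 1912, whereas N_KO libraries had 5 to 16 and OGD_KO libraries 2 to 14. The cultures expressed the neuron markers they should: all 10 of the neuron list were in every table, at a summed 5660 to 7041 CPM (read counts scaled to library size) in N_WT. The 8 microglia markers, among them Aif1 and Cx3cr1, were in none of the 4 tables. Replicates 1 and 3 stood apart in each of the 4 groups. For a gene with the same abundance in both libraries, sampling of reads alone gives a median chi-square of 0.455, and the pair of replicates 1 and 3 gave medians of 0.416 to 0.509, against 0.872 to 3.1 for the other pairs. Each also lay close to a weighted sum of replicates 2, 4 and 5, with weights of 0.238 to 0.431. Replicate 3 differed from that sum by a median chi-square of 0.259 to 0.62 and replicate 1 by 0.75 to 0.891, whereas replicates 2, 4 and 5 each differed from the sum of the other two by 1.89 to 3.38. The mean chi-square of the pair was 1.15 to 1.37, so they were not identical and were kept as 5 libraries a group, but 5 independent cultures are not shown. The p-values from 5 libraries may therefore be too small, and the OGD results are also given for replicates 2, 4 and 5 alone. By the labels replicate 1 of both genotypes was of batch 1 and replicate 3 of KO of batch 2. The others carried 3 with a sub-number that differed among them; these were merged as batch 3, since a sub-number held at most 2 cultures of a genotype. With that merge the values within batch 3 are those without replicate 1 in WT and those of replicates 2, 4 and 5 in KO.

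Reads of these genes could be confused with others only in small part: at most 0.644% of the 50-base words of a subunit's exons occurred in another gene, and the exons of Gria2, Gria3, Gria4 and Grik4 each overlapped 1 small RNA gene on the same strand. The level of each subunit was compared per length of the longest coding transcript, as CPM per kilobase on 1 scale for all libraries. In N_WT Gria2 was highest, at 120 CPM per kb ± 63.6 (SD, n = 5). Grik3 followed at 27.4 ± 3.89, Gria1 at 24.1 ± 3.29 and Grik5 at 20.1 ± 4.27. Gria4 stood at 15.1 ± 3.52, Grik2 at 12.2 ± 0.911 and Gria3 at 9.31 ± 2.12, all CPM per kb. Grik1 at 4.45 ± 0.381 and Grik4 at 0.874 ± 0.185 were lowest. In this order the ranges over the 5 libraries were separate between Gria2 and Grik3, between Gria3 and Grik1 and between Grik1 and Grik4. Every other pair of neighbours overlapped, so the order within neighbouring pairs from Grik3 to Gria3 is not resolved, although every library of Grik3 and Gria1 lay above every library of Gria4, Grik2 and Gria3. In OGD_WT Gria2 stood at 128 CPM per kb ± 30.5 (SD, n = 5), Grik3 at 20.5 ± 3.08, Gria1 at 20.1 ± 8.13 and Grik2 at 20.1 ± 7.85, with ranges that overlapped among the last 3. Per length of coding sequence instead, Grik2 in N_WT came before Gria4 and Grik5, at 42.3 CPM per coding kb against 30.4 and 25.8. That measure left the long 3′ UTR of Grik2 out of the length, while all reads of the gene were kept.

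**Figure D1:**
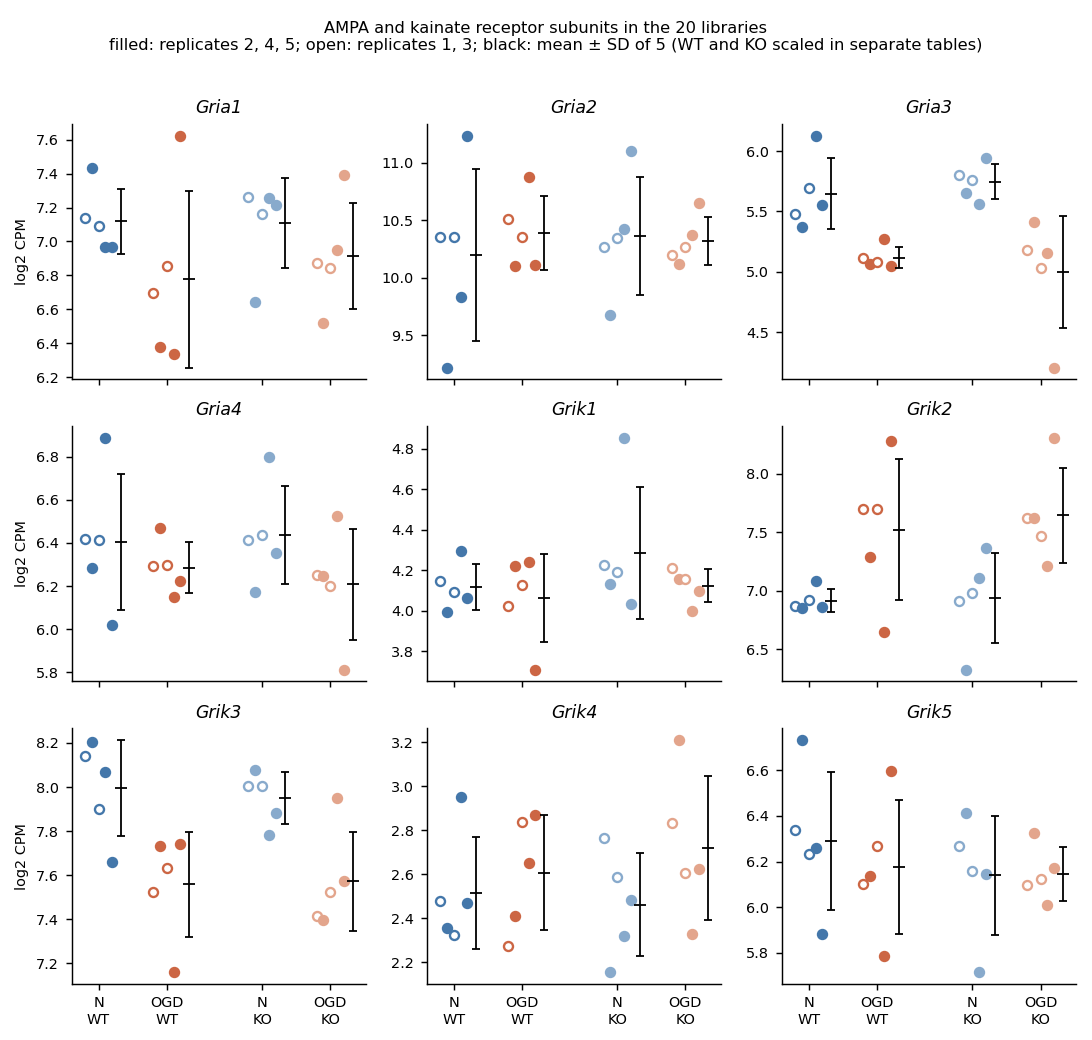
Each panel plots 1 subunit, with log2 CPM on the y axis and the 4 groups on the x axis; points are libraries (filled for replicates 2, 4 and 5, open for 1 and 3) and black marks give the mean ± SD of 5. Gria3 is lower in every OGD library than in every N library of its genotype, Grik2 is mostly higher under OGD, and Gria2 spreads from 9.22 to 11.23 in N_WT.

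OGD was compared with normoxia within each genotype, and 3 of the 9 subunits changed in WT and the same 3 in KO. Gria3 and Grik3 fell and Grik2 rose in both, the latter without a call when libraries were scaled to their total reads. A gene was called at a limma adjusted p under 0.05, which 44.3% of all genes reached in WT (21.6% higher and 22.8% lower) and 40.9% in KO, so 3 of 9 is no more than the share of all genes. The median log2 fold change of the 9 was -0.11 in WT and -0.16 in KO, beside -0.03 and 0.00 over all genes. With replicates 2, 4 and 5 alone none of the 9 was called in either genotype, where 16.9% of all genes were called in WT and 16.3% in KO.

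Gria3, on the X chromosome (chrX:41400854-41678601, plus strand), encodes GluA3, which pairs with GluA2 in many cortical AMPA receptors. In N_WT its log2 CPM was 5.48, 5.37, 5.69, 6.13 and 5.55 in replicates 1 to 5, and in OGD_WT it was 5.12, 5.06, 5.08, 5.27 and 5.05. In N_KO it was 5.80, 5.66, 5.76, 5.56 and 5.95, and in OGD_KO 5.18, 5.41, 5.03, 5.16 and 4.21. All 5 OGD libraries lay below all 5 N libraries in both genotypes, which held in the lower direction for 13.1% of all genes in WT and 12.4% in KO. Replicate 5 of OGD_KO was lowest, with 107 recovered reads. In WT Gria3 fell by 0.53 on the log2 scale (SE 0.15, limma adjusted p = 0.0073, 1.44-fold), lower in 5 of 5 cultures. The exact permutation test of the 5 against 5 libraries (two-sided) gave 0.0079, which is as low as it can go. In KO it fell by 0.75 (SE 0.19, limma adjusted p = 0.0035, 1.68-fold), also lower in 5 of 5 cultures. With replicates 2, 4 and 5 alone the values were -0.56 in WT (limma adjusted p = 0.22) and -0.80 in KO (limma adjusted p = 0.057), and without replicate 3 the WT call was also lost (limma adjusted p = 0.058). Within batch 3 the WT value was -0.57 (limma adjusted p = 0.026). In bulk RNA fewer cells of a type and less RNA per cell cannot be told apart.

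The other AMPA subunits did not pass the test in either genotype. Gria2 (chr3:80681450-80802835, minus strand) varied most between libraries of 1 group: N_WT replicates 1 to 5 stood at 10.35, 9.22, 10.35, 9.83 and 11.23 log2 CPM, and OGD_WT replicates at 10.51, 10.10, 10.35, 10.88 and 10.11. In N_KO it stood at 10.26, 9.67, 10.34, 10.42 and 11.10, and in OGD_KO at 10.20, 10.12, 10.26, 10.37 and 10.65. In both genotypes the OGD range lay inside the N range. The change was 0.19 in WT (95% CI -0.34 to 0.73, limma adjusted p = 0.57) and -0.04 in KO (95% CI -0.51 to 0.43, limma adjusted p = 0.90). Gria1 (chr11:57011387-57330244, plus strand) encodes the GluA1 subunit inserted at synapses in plasticity. It stood at 7.14, 7.43, 7.09, 6.97 and 6.97 log2 CPM in N_WT and at 6.70, 6.38, 6.85, 6.33 and 7.62 in OGD_WT. OGD_WT replicate 5 was above every N_WT library and the other 4 were below every one. In KO the ranges overlapped, at 6.64 to 7.26 in N_KO and 6.52 to 7.39 in OGD_KO. Its change was -0.34 in WT (95% CI -0.75 to 0.06, limma adjusted p = 0.16) and -0.19 in KO (limma adjusted p = 0.39). Replicate 5 decided both WT values: without that culture Gria1 was at -0.59 (limma adjusted p = 0.0012) and Gria2 at 0.52 (limma adjusted p = 0.014). Gria4 (chr9:4417896-4796234, minus strand), whose GluA4 is typical of fast-spiking interneurons and of early development, ranged over 6.02 to 6.89 log2 CPM in N_WT and 6.15 to 6.47 in OGD_WT, and over 6.17 to 6.80 in N_KO and 5.81 to 6.53 in OGD_KO. It differed by -0.12 in WT (95% CI -0.44 to 0.20) and -0.23 in KO (95% CI -0.56 to 0.10).

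Grik2, on chromosome 10 (chr10:49094833-49788766, minus strand), encodes GluK2, the main pore-forming subunit of cortical and hippocampal kainate receptors. Its log2 CPM in N_WT was 6.87, 6.85, 6.92, 7.08 and 6.86 in replicates 1 to 5, and in OGD_WT 7.70, 7.29, 7.70, 6.64 and 8.28. In N_KO it was 6.91, 6.32, 6.98, 7.11 and 7.36, and in OGD_KO 7.62, 7.62, 7.47, 7.21 and 8.31. Of the OGD_WT libraries 4 lay above all N_WT libraries, but replicate 4 lay below them, and in KO 4 of 5 OGD libraries lay above all N libraries. Grik2 rose by 0.61 on the log2 scale in WT (SE 0.21, limma adjusted p = 0.022, 1.52-fold), higher in 4 of 5 cultures, where the exact permutation p was 0.079. It rose by 0.71 in KO (SE 0.21, limma adjusted p = 0.010, 1.63-fold), higher in 5 of 5 cultures, with an exact permutation p of 0.016. With replicates 2, 4 and 5 alone the values were 0.47 in WT (limma adjusted p = 0.33) and 0.78 in KO (limma adjusted p = 0.091). The WT call was also lost without replicate 1, 2 or 3 (limma adjusted p = 0.082, 0.060 and 0.067), and the KO call without replicate 2 (limma adjusted p = 0.051).

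Grik3, on chromosome 4 (chr4:125490700-125714173, plus strand), encodes GluK3, a kainate subunit of low glutamate affinity. Its log2 CPM in N_WT was 8.14, 8.21, 7.90, 8.07 and 7.66 in replicates 1 to 5, and in OGD_WT 7.52, 7.73, 7.63, 7.16 and 7.74. In N_KO it was 8.0, 8.08, 8.01, 7.78 and 7.88, and in OGD_KO 7.41, 7.40, 7.52, 7.95 and 7.57. The groups overlapped through replicate 5 of N_WT and replicate 4 of OGD_KO. Grik3 fell by 0.44 in WT (SE 0.16, limma adjusted p = 0.027, 1.35-fold) and by 0.38 in KO (SE 0.15, limma adjusted p = 0.0499, 1.3-fold), lower in 4 of 5 cultures of each and with an exact permutation p of 0.024 in each. The KO call lay at the threshold and was lost with the culture number as a block (limma adjusted p = 0.097), with the batch label as covariate (limma adjusted p = 0.13) and without replicate 1, 2 or 3 (limma adjusted p = 0.23, 0.12 and 0.22), while the WT call was lost without replicate 1, 3 or 4 (limma adjusted p = 0.14, 0.082 and 0.084). In replicates 2, 4 and 5 alone the values were -0.43 in WT (limma adjusted p = 0.39) and -0.27 in KO (limma adjusted p = 0.65).

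The other kainate subunits had no call. Grik1 (chr16:87895900-88290265, minus strand), whose GluK1 is found mainly in interneurons of the cortex, ranged over 3.99 to 4.3 log2 CPM in N_WT and 3.71 to 4.24 in OGD_WT, and over 4.03 to 4.85 in N_KO and 4.0 to 4.21 in OGD_KO. It differed by -0.05 (95% CI -0.35 to 0.25) and -0.16 (95% CI -0.49 to 0.16). Among the partner subunits Grik4 (chr9:42518135-42944493, minus strand) had 34 to 110 recovered reads per library. It ranged over 2.32 to 2.95 in N_WT and 2.27 to 2.87 in OGD_WT, a difference of 0.09 (95% CI -0.26 to 0.45). In KO it ranged over 2.16 to 2.77 in N_KO and 2.33 to 3.21 in OGD_KO and was higher in 5 of 5 cultures, by 0.26 (95% CI -0.11 to 0.63), without a call. Grik5 (chr7:25009849-25072346, minus strand), the most abundant partner, differed by -0.11 in WT (95% CI -0.46 to 0.24) and by 0.01 in KO (95% CI -0.30 to 0.32), with overlapping groups in both. For Gria4, Grik1, Grik4 and Grik5 the limma adjusted p was between 0.26 and 0.98 over both genotypes.

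Both genotypes were also averaged in 1 fit over the genes of all 4 tables, chosen after seeing the data, since the genotypes do not share libraries. Over 20 libraries, where 58.8% of genes were called, the log2 change under OGD was -0.64 for Gria3 (SE 0.12), 0.66 for Grik2 (SE 0.16) and -0.41 for Grik3 (SE 0.10), with limma adjusted p of 6.9e-05, 0.00087 and 0.0015. Over the 12 libraries of replicates 2, 4 and 5, where 32.6% of genes were called, Gria3 stood at -0.68 (SE 0.21, limma adjusted p = 0.012) and Grik2 at 0.63 (SE 0.24, limma adjusted p = 0.043). Grik3 stood at -0.35 (SE 0.21, limma adjusted p = 0.20). With the culture as a correlated block in these 12 libraries, Gria3 was still called (limma adjusted p = 0.019) and Grik2 was not (limma adjusted p = 0.062), and with the culture as a fixed term both were (limma adjusted p = 0.018 and 0.042). Of all genes 29.4% were called in these libraries with either block. The call of Grik2 in the libraries that did not resemble sums of others thus lay at the threshold.

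**Figure D2:**
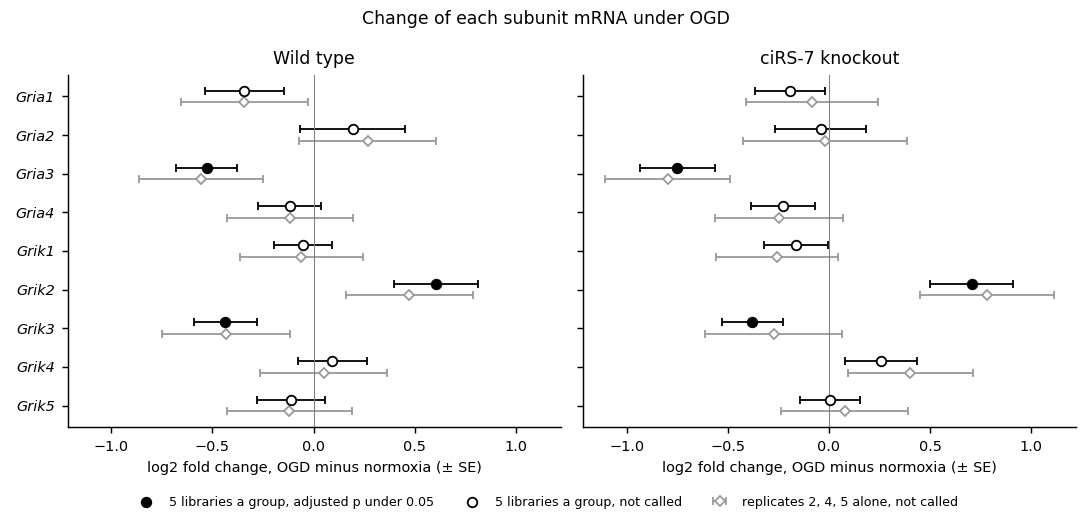
The x axis is the log2 fold change of OGD against normoxia with its SE and the y axis lists the subunits, for WT on the left and KO on the right; circles are from 5 libraries a group (filled where called) and diamonds from replicates 2, 4 and 5. Gria3, Grik2 and Grik3 are the called genes in both panels, and the diamonds lie on the same side of 0 with wider errors and no call.

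All of these changes are relative to the authors' scaling. The mitochondrial rRNA mt-Rnr2 took 10.1% to 14.0% of reads in N_WT and 13.8% to 24.6% in OGD_WT, and 10.1% to 16.4% in N_KO and 18.0% to 32.0% in OGD_KO. When libraries were scaled to their total reads, the median of all genes moved to -0.30 in WT and -0.28 in KO, and 22.1% of called genes were higher in WT, against 48.6% under the authors' scaling (21.9% against 51.3% in KO). On that scale Grik2 stood at 0.33 in WT (limma adjusted p = 0.20) and 0.42 in KO (limma adjusted p = 0.088) and lost both calls. Gria1 and Gria4 were called lower in both genotypes, Grik1 was called lower in KO, and Gria2 was at -0.09 and -0.33. Of all genes 5744 of 14235 were called lower in WT and 5289 of 14375 in KO, against 3244 and 2863 under the authors' scaling. The added lower calls thus came with a rise in lower calls over all genes. Gria3 and Grik3 were called lower in both genotypes under both scalings.

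The make-up of each receptor family was described as shares of reads, which need no scaling between libraries. Gria2 made up 79.7% ± 9.1 (SD, n = 5) of the reads of the 4 AMPA subunits in N_WT and 85.2% ± 4.6 in OGD_WT, 82.3% ± 3.6 in N_KO and 84.7% ± 1.3 in OGD_KO. The 5 N_WT libraries ranged from 67.2% to 91.1%, a span that held all OGD_WT libraries (78.4% to 90.9%). Gria3 was the smallest part per kb of transcript, at 6.0% ± 2.3 in N_WT and 3.8% ± 0.4 in OGD_WT, and at 5.9% ± 1.4 in N_KO and 3.9% ± 1.4 in OGD_KO. The kainate family differed more. Grik2 made up 25.4% ± 3.0 of kainate subunit reads in N_WT and 39.5% ± 7.1 in OGD_WT, and 26.7% ± 6.2 in N_KO and 41.4% ± 7.9 in OGD_KO. Grik3 made up 53.5% ± 2.2 in N_WT and 40.2% ± 5.1 in OGD_WT, and 52.9% ± 4.4 in N_KO and 39.3% ± 7.6 in OGD_KO. In all 10 N libraries Grik3 had the largest share, whereas Grik2 had more reads than Grik3 in replicates 1, 3 and 5 of OGD_WT and in replicates 1, 2 and 5 of OGD_KO. Shares of reads weigh long transcripts more. Per kb of transcript Grik2 was not above Grik3 in replicate 3 of OGD_WT (31.29% against 31.41%). Per kb in N_WT Grik5 made up 30.7% ± 3.2 of the kainate subunits, against 16.4% by reads, and Gria2 68.0% ± 12.4 of the AMPA subunits. Over replicates 2, 4 and 5 alone, Grik2 was at 25.8% ± 3.9 (SD, n = 3) in N_WT and 37.8% ± 9.4 in OGD_WT, and at 27.3% ± 8.6 in N_KO and 41.7% ± 10.9 in OGD_KO. These shares restate the changes of Grik2 and Grik3 as proportions and were not tested.

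**Figure D3:**
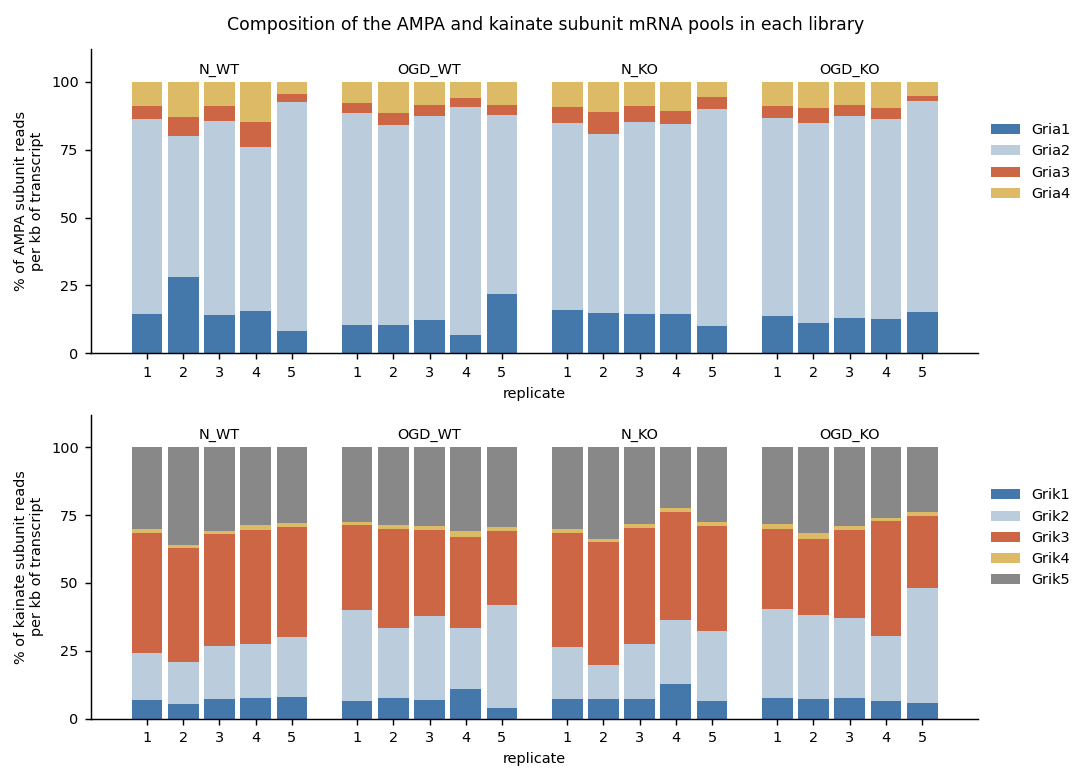
Stacked bars give, for each of the 20 libraries on the x axis, the percentage of AMPA (top) or kainate (bottom) subunit reads per kb of transcript that each gene took. Gria2 fills most of every AMPA bar, and the Grik2 part of the kainate bars widens from 19.0% ± 2.5 in N_WT to 30.1% ± 6.2 in OGD_WT while the Grik3 part narrows from 42.0% ± 1.5 to 32.1% ± 3.4.

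Loss of ciRS-7 was compared within normoxia and within OGD, and no subunit was called in either. The genotypes overlapped for all 9 genes in both conditions. Of all genes 0.0353% were called in normoxia and 0.0282% under OGD, and groups did not overlap for 0.325% and 0.345%. None of the 9 had an unadjusted p under 0.05 in limma, where 256 genes (1.81%) did in normoxia and 253 (1.78%) under OGD. With shares of all genes that low, none of 9 says little about the subunits. In normoxia Gria3 ranged over 5.73 to 6.10 log2 CPM in N_KO and 5.49 to 6.25 in N_WT, and its difference (KO minus WT) was 0.14 (95% CI -0.17 to 0.44). Grik2 differed by 0.06 (95% CI -0.28 to 0.39) and Grik3 by -0.01 (95% CI -0.28 to 0.27). Under OGD Gria3 ranged over 4.07 to 5.25 in OGD_KO and 4.89 to 5.13 in OGD_WT, a difference of -0.11 (95% CI -0.50 to 0.29), Grik2 differed by 0.14 (95% CI -0.40 to 0.67) and Grik3 by 0.03 (95% CI -0.31 to 0.37). Gria2, which holds 1 of the miR-7 target words shown above, differed by 0.20 in normoxia (95% CI -0.41 to 0.81) and by -0.05 under OGD (95% CI -0.45 to 0.34). Both intervals span 0, and the normoxia interval is wide on either side of it.

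Whether OGD acted differently in the 2 genotypes was tested as an interaction over all 20 libraries. No subunit was called, as for 0.0% of the 13688 genes (99 genes, or 0.723%, had an unadjusted p under 0.05 in limma, none of them a subunit). The OGD change in KO minus that in WT was -0.25 for Gria3 (95% CI -0.80 to 0.30), 0.07 for Grik2 (95% CI -0.65 to 0.80), 0.03 for Grik3 (95% CI -0.43 to 0.49) and -0.26 for Gria2 (95% CI -1.13 to 0.60). Without replicates 1 and 3 the interaction was -0.26 for Gria3 (SE 0.45) and 0.29 for Grik2 (SE 0.52). The intervals are wide against the OGD changes themselves.

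**Figure D4:**
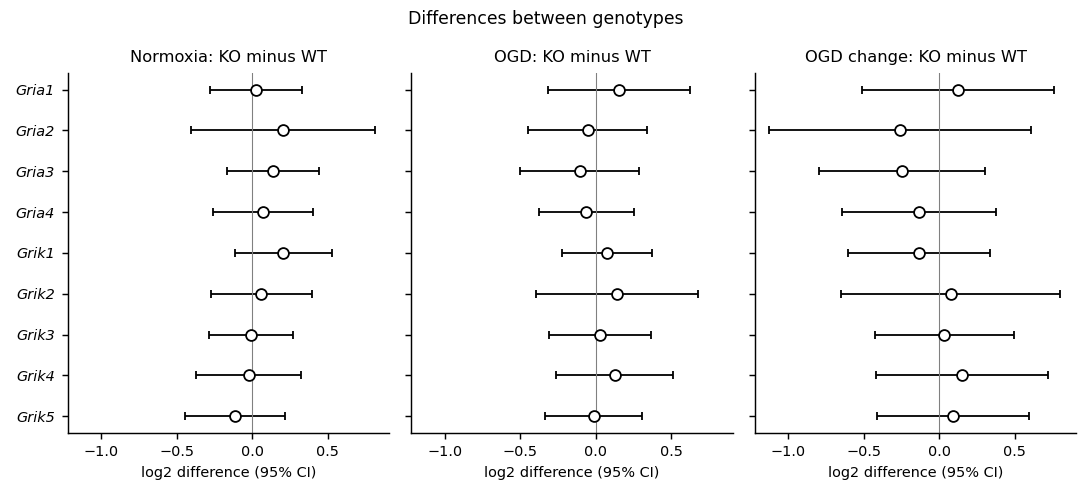
Each panel gives log2 differences with 95% confidence intervals on the x axis for the 9 subunits on the y axis: KO minus WT in normoxia, KO minus WT under OGD, and the difference of the OGD changes. Every interval includes 0, and that of Gria2 is the widest in the first and last panels.

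Proteins that assemble, carry and anchor these receptors were described from lists, by their counts beside the 21.6% of all genes called higher and 22.8% called lower in WT, and 21% and 19.9% in KO. Of 23 AMPA auxiliary and assembly genes, 2 rose and 6 fell in WT, and 1 rose and 7 fell in KO, and the list's median change was -0.27 and -0.29. Cacng2, which encodes stargazin, the prototype auxiliary subunit that brings AMPA receptors to synapses, fell by 1.21 in WT (SE 0.20, limma adjusted p = 5.4e-05) and by 1.41 in KO (SE 0.24, limma adjusted p = 0.00012). Frrs1l, an assembly factor of the endoplasmic reticulum, fell by 1.39 and 1.3 (SE 0.16 in each), and Cnih3, a cornichon that slows channel closing, fell by 0.87 and 0.90. With replicates 2, 4 and 5 alone these 3 genes were still called in both genotypes (highest limma adjusted p = 0.035). Shisa8, another auxiliary subunit, rose by 0.68 and 0.59, and Cacng5, a relative of stargazin, rose in WT by 0.52 and was at 0.19 in KO (limma adjusted p = 0.38). Of these 2, only Shisa8 in WT was called with replicates 2, 4 and 5 (limma adjusted p = 0.033). The level of Shisa8 was low, at a mean log2 CPM of 0.21 in N_WT and 0.89 in OGD_WT. It was listed only in the comparisons that include OGD libraries, where it was higher.

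Of the 3 kainate partners in the tables, Neto2, an auxiliary subunit that slows kainate receptor desensitization, fell by 1.01 in WT (SE 0.18, limma adjusted p = 0.00016) and by 0.99 in KO (SE 0.23, limma adjusted p = 0.0025), with limma adjusted p of 0.0097 and 0.013 in replicates 2, 4 and 5. C1ql3, a secreted synaptic protein, fell by 0.46 in WT (limma adjusted p = 0.046) and was at -0.22 in KO, without a call in replicates 2, 4 and 5 (limma adjusted p = 0.15 in WT). Grik2 mRNA was higher and Neto2 mRNA lower under OGD in both genotypes, in separate fits of single genes.

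Of 31 genes of AMPA receptor trafficking and anchoring, 5 rose and 10 fell in each genotype, and the list's median change was -0.26 and -0.22. Arc, an immediate early gene whose protein removes AMPA receptors from synapses, rose most, by 2.70 in WT (SE 0.17, limma adjusted p = 1.7e-10) and 2.31 in KO (SE 0.20, limma adjusted p = 1.3e-07). Nptx2, a secreted pentraxin that clusters AMPA receptors, rose by 1.05 and 1.02, and Myo6, a motor of their endocytosis, by 0.87 and 0.77. The other two that rose were Dlg1 and Tspan7 in both genotypes, neither called in replicates 2, 4 and 5 (lowest limma adjusted p = 0.081). Usp46, a deubiquitinase acting on AMPA receptors, fell by 1.09 and 1.15, Nptxr, the pentraxin receptor, by 0.97 and 1.17, and Dlg2, a scaffold of the postsynaptic density, by 0.85 and 0.99. In replicates 2, 4 and 5 Arc, Usp46 and Nptxr were called in both genotypes, Nptx2 and Myo6 in WT and Dlg2 in KO.

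Among the editing enzymes Adarb1, which encodes ADAR2, the enzyme that edits the Q/R codon of Gria2, fell by 0.44 in WT (SE 0.17, limma adjusted p = 0.046) and 0.46 in KO (SE 0.15, limma adjusted p = 0.022). Neither was called in replicates 2, 4 and 5 (limma adjusted p = 0.46 and 0.41). Adar was at 0.02 in WT and -0.02 in KO, and Adarb2 at 0.16 and 0.10. Rest, a repressor of neuronal genes that is known to bind Gria2, rose by 1.17 in WT (SE 0.15, limma adjusted p = 2.8e-06) and 0.94 in KO (SE 0.15, limma adjusted p = 7.9e-05), and its cofactor Rcor2 by 1.57 and 1.43. Both were called in replicates 2, 4 and 5 of both genotypes. Of the 9 genes of this repressor list, Rcor1 also rose in WT (0.50), and Ehmt2 rose in KO, neither called in replicates 2, 4 and 5 (limma adjusted p = 0.17 and 0.22). Gria2 itself, as given above, had no call in either genotype.

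Other glutamate receptors gave a comparison. Of 6 NMDA receptor subunits in the OGD tables, Grin2c rose (1.03 in WT and 0.60 in KO). Like Shisa8, Grin2c was listed only in the comparisons that include OGD libraries. The obligatory subunit Grin1 fell by 0.79 and 0.98, Grin2a, Grin2b and Grin2d fell in both genotypes, and Grin3a fell in KO. In replicates 2, 4 and 5 Grin2c was called in WT and Grin1 in KO, and the other NMDA subunits in neither (limma adjusted p = 0.092 for Grin1 in WT). Of 7 metabotropic receptors Grm2 (-1.55 in WT and -1.37 in KO), Grm3 and Grm5 fell in both genotypes and none rose. In replicates 2, 4 and 5 Grm2 was the one called, in both genotypes. The list medians were -0.66 and -0.50 in WT for these families, against -0.11 for the 9 AMPA and kainate subunits. Whether the families differed was not tested.

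**Figure D5:**
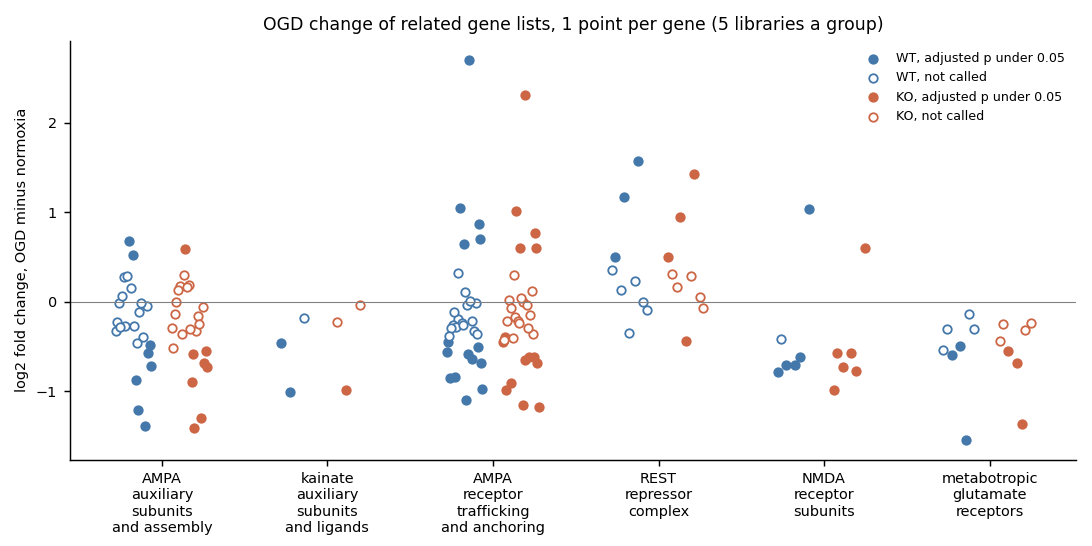
Each point is 1 gene of a related list (x axis), with its log2 fold change under OGD on the y axis, blue for WT and red for KO, filled where called with 5 libraries a group. Arc is the highest point of the trafficking list at 2.70 in WT, Grm2 the lowest of the metabotropic list at -1.55, and the NMDA subunits lie mostly below 0.

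Markers of cell types were compared as well. In WT 21.6% of all genes were called higher under OGD and 22.8% lower, and in KO 21% and 19.9%. Of 10 neuron markers 4 were called lower in WT and 5 in KO (1 and 2 with replicates 2, 4 and 5), and none higher. Their summed level went from 5660 to 7041 CPM in N_WT to 3640 to 6319 in OGD_WT. In KO it went from 6175 to 6518 in N_KO to 3926 to 5147 in OGD_KO. Of 9 markers of excitatory neurons, among them Slc17a7 and Tbr1, 8 were called lower in WT and 9 in KO (6 in each with replicates 2, 4 and 5), and their summed level went from 1035 to 1124 CPM in N_WT to 543 to 619 in OGD_WT, and from 917 to 1125 in N_KO to 489 to 723 in OGD_KO. Of 11 interneuron markers Gad2, Lhx6 and Calb2 were called lower in both genotypes and Dlx6 higher in KO. The count called lower was near the share of all genes, and the count called higher was below it. In replicates 2, 4 and 5 Calb2 was called in WT and Calb2 and Gad2 in KO. The summed level of this list was 357 to 446 CPM in N_WT and 316 to 470 in OGD_WT, and 362 to 536 in N_KO and 323 to 475 in OGD_KO. Of 9 astrocyte markers Slc1a3, Gja1, Sox9 and Aldoc were called higher in both genotypes, and in WT Aldh1l1 higher and Gfap lower. The first 4 were called in replicates 2, 4 and 5 in WT, and Gja1 in KO. Their summed level was 1401 to 1838 CPM in N_WT and 2194 to 2822 in OGD_WT, and 1383 to 1839 in N_KO and 1910 to 2619 in OGD_KO. Of 9 markers of proliferating progenitors Mki67, Top2a, Ccnb1, Cdk1 and Sox2 were called higher in both genotypes and Eomes lower in WT. In replicates 2, 4 and 5 Mki67, Top2a and Ccnb1 were called in both genotypes and Cdk1 in WT. This list summed to 584 to 769 CPM in N_WT and 981 to 1575 in OGD_WT, and to 558 to 864 in N_KO and 1152 to 1542 in OGD_KO. The part of these differences in the changes of Gria3, Grik2 and Grik3 was not tested.

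The genes whose pattern was most like that of Gria3 over the 20 libraries were Gnaz, Lpgat1, Ubxn2b, Acat1 and Caly, with Pearson's r of 0.957, 0.952, 0.95, 0.95 and 0.945 on the joint log2 scale. For Grik2 they included Adcy6, Rgs16, Dnah9 and Fdxacb1, with r of 0.925, 0.901, 0.897 and 0.895. The points share libraries, treatment and the pooled look of replicates 1 and 3, so these values rank genes and are given without a p. All 5 genes most like Gria3 fell in both genotypes, from -0.47 for Ubxn2b to -1.12 for Lpgat1 in WT. They were chosen by likeness to a gene that fell, so their direction is no separate result. Of the genes named for Grik2, Dnah9 was called higher in both genotypes and Rgs16 and Fdxacb1 in KO only. Adcy6 was called in neither (limma adjusted p = 0.091 in WT and 0.19 in KO).

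Hypoxia-inducible factors bind short words in promoters. RefSeq promoter windows on mm10, from 250 bases before to 50 after the start, were found for 6 of the 9 genes (Gria2, Gria4, Grik2, Grik3, Grik4 and Grik5). On both strands the hypoxia core GCGTG occurred in 5 of them, with 2 matches in Grik2, whereas 32.4% of 32851 promoters held it. The core ACGTG (19.6% of promoters), the AP-1 word TGACTCA (5.2%) and the cAMP element TGACGTCA (1.79%) occurred in none of the 6. The 5-base words are short and frequent in GC-rich promoters, and a match says only that the letters are there.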

How the data were processed

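Total RNA libraries were made with a SMARTer stranded kit, per the labels' protocols. The authors deposited log2 CPM values per gene in 4 tables, 1 per comparison, on the mm10 build per the submitters' processing notes. The aligner and counter are not given in the sources used here. The deposited log2 values were clipped for each gene and group of 5 at its 0.1 and 0.9 quantiles, a step inferred from the values. Undoing it gave whole reads (within 0.05) for 99.91% to 99.99% of values of genes with up to 500 reads, against 45.3% to 92.8% as deposited. A total of 7071506 to 16658618 reads per library was recovered, which limits precision for low genes.

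Each table was fitted with limma 3.58.1 (R 4.3.3) with a mean-variance trend on the un-clipped log2 CPM of all its genes. Tests were two-sided with Benjamini-Hochberg adjustment over all genes and called under 0.05. The interaction and the average over genotypes used 13688 genes of all 4 tables on 1 scale (median-of-ratios sizes, prior count 2), the interaction with the culture as a correlated block (correlation -0.19). Exact permutation tests used scipy 1.17.1. Code was tested on simulated data. Confidence intervals use limma's standard errors.

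N and OGD libraries of the same number share a culture label, so the numbers pair them by the labels. Deviations of paired libraries from their group means correlated between -0.59 and 0.05 in WT and between -0.75 and -0.07 in KO. Alternatives were the deposited values, other scalings and prior counts, a filter, batch terms, the block and leaving out libraries. Members and lists were chosen with earlier results of these data known. Named genes are the 9 members, the called list genes with the 3 largest rises and falls in WT, editing enzymes and Rest, and the 5 genes most correlated with Gria3 and Grik2. List genes named beyond these, to complete a small count, were chosen after their values were seen. Some results under this rule are not reported here.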

Additional observations from a re-analysis of the deposited data

Results flagged for a closer look

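In 4 of the 36 sets of 5 libraries (9 genes in 4 groups), 1 library lay far from the others by Dixon's gap test, where chance gives about 1 in 20. On the joint log2 CPM scale, Gria1 in N_KO replicate 2 was lowest at 6.61, with the others at 7.14 to 7.24. Grik1 in N_KO replicate 4 was highest at 4.83, with the others at 3.98 to 4.18. In N_WT replicate 4 was highest for Grik2, at 7.03 against 6.77 to 6.85, and for Grik4, at 2.85 against 2.18 to 2.35. The low spread of the other 4 libraries includes replicates 1 and 3, which resemble sums of replicates 2, 4 and 5.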

How the results depend on the processing

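The 3 OGD calls of each genotype depended on the number of libraries, and that of Grik2 also on the scaling. In WT (3 of 9 subunits called) 1 was called in batch 3 alone, 1 with replicates 1 and 3 averaged, 0 in replicates 2, 4 and 5 alone, and 0 (without replicate 3) to 5 (without replicate 5) when a culture was left out. In KO 0 were called in batch 3 alone, which is replicates 2, 4 and 5, 5 when scaled to total reads, and 1 (without replicate 2) to 3 when a culture was left out. Of all genes in KO 47.1% were called when scaled to total reads and 40.3% without replicate 2. Fewer libraries give less power, and all genes called went to 2411 in WT and 2341 in KO in replicates 2, 4 and 5. With the culture pairing as a replicate block the calls of Gria3 and Grik2 were unchanged in both genotypes (limma adjusted p of 0.010 and 0.047 in WT, 0.016 and 0.012 in KO), Grik3 was called in WT (0.040) and not in KO (0.097), and 39.9% of genes were called in WT and 33.6% in KO. Averaged over both genotypes, 3 subunits were called with either block over 20 libraries, and 1 with the correlated block in replicates 2, 4 and 5. Of all genes, 54.9% were called with the correlated and 54.5% with the fixed block over 20 libraries. In replicates 2, 4 and 5 the share with the correlated block was 29.4%. On the deposited, clipped values Gria1 was also called in WT (-0.38, limma adjusted p = 0.030), where 58.2% of all genes were called.

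Between genotypes no subunit was called under any alternative run. Of all genes 5 were called in normoxia, against 9 on deposited values, 3 without low genes (mean log2 CPM under 1) or with the replicate block, 2 in batch 3 alone, 29 in replicates 2, 4 and 5, and 3 to 5 with a library left out. Under OGD 4 were called, against 12 on deposited values, 1 with a prior count of 0.5, 2 with the batch covariate, the replicate block, total reads or replicates 1 and 3 averaged, 18 in replicates 2, 4 and 5, and 1 to 7 with a library left out. The cause of these differences was not tested.

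Only uncalled values changed sign. Scaled to total reads these were -0.086 for Gria2 and -0.17 for Grik4 in WT, and -0.014 for Grik4 and -0.285 for Grik5 in KO. Grik5 in KO was -0.022 on deposited values and -0.0044 with libraries centred on the median gene. Between genotypes in normoxia Grik4 was 0.014 on deposited values, and Gria1 -0.042 in batch 3, -0.0049 scaled to total reads, -0.048 in replicates 2, 4 and 5 and -0.0022 with replicates 1 and 3 averaged. Under OGD Grik3 was -0.023 on deposited values, Gria2 0.031 in batch 3 and 0.029 in replicates 2, 4 and 5, and Grik5 0.0080 in the latter.

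With 1 library or culture left out, values that crossed 0 ranged as follows. For OGD in WT they ran from -0.019 to 0.52 for Gria2, -0.20 to 0.037 for Gria4, -0.12 to 0.022 for Grik1, -0.013 to 0.19 for Grik4 and -0.32 to 0.0094 for Grik5. In KO they ran from -0.16 to 0.061 for Gria2, -0.22 to 0.010 for Grik1 and -0.066 to 0.050 for Grik5. Between genotypes in normoxia they ran from -0.014 to 0.14 for Gria1, -0.045 to 0.46 for Gria2, -0.028 to 0.19 for Gria4, -0.046 to 0.215 for Grik2, -0.092 to 0.043 for Grik3 and -0.10 to 0.087 for Grik4. Under OGD they ran from -0.14 to 0.070 for Gria2, -0.205 to 0.090 for Gria3, -0.14 to 0.035 for Gria4, -0.017 to 0.12 for Grik1, -0.077 to 0.33 for Grik2, -0.066 to 0.079 for Grik3 and -0.11 to 0.089 for Grik5. For the interaction they ran from -0.053 to 0.37 for Gria1, -0.22 to 0.038 for Grik1, -0.19 to 0.27 for Grik2, -0.105 to 0.16 for Grik3, -0.057 to 0.26 for Grik4 and -0.027 to 0.29 for Grik5.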
